A study of Mus musculus with 8 samples.

Results

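Clearance of dying cells by phagocytes depends on receptors that recognise phosphatidylserine on the apoptotic surface, on soluble bridges that link it to those receptors, and on a signal that moves the actin skeleton. The expression of 10 such genes was examined here in CD11c+ cells grown from mouse BM in conditions that induce LC-like cells. They were the bridges *Mfge8*, *Gas6* and *Pros1*, the TAM receptors *Axl*, *Mertk* and *Tyro3*, the other receptors or receptor subunits *Stab1*, *Lrp1* and *Itgb5*, and the engulfment adaptor *Elmo1*. All 10 were found among the 24421 genes of the count table, and all 10 passed the filter on low counts that 12424 genes passed. They were chosen by their role in uptake together with their measured CPM in these 8 libraries, *Mfge8* being lower and *Axl* higher in both comparisons below. Their values in those comparisons are therefore a description and carry no test.

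Poly(A) RNA of 8 libraries was sequenced, and each library is named here as the columns of the count table name it. WT 1 and WT 2 are untreated C57BL6 wild type cells, and they are set against ∆*Rara* CD11c 1 and 2, labelled RARa-/-, in which CD11c-Cre deletes a floxed exon of *Rara*, the gene of RARα, only once a cell expresses CD11c. Control 1 and Control 2 are also untreated wild type cells (titled WT 3 and WT 4, in an order that the names do not give), and they are set against RA 1 and RA 2, wild type cells cultured with all-trans retinoic acid at 1 nM by the labels. All groups were cultured with GM-CSF (20 ng/ml) and TGFβ1 (10 ng/ml) for 3 to 5 days by the labels in medium with 10% FBS, which the labels leave as regular or charcoal-treated, and CD11c+ cells were isolated on beads to a purity above 90%. For these cultures the study itself names charcoal-treated FBS, the shortest of those times and a higher RA concentration than the labels. The labels give no age, and they do not say whether the libraries of a group come from separate animals. The study calls its samples independent without saying at which level, so p-values measure the spread between these libraries. WT mice in the study could be C57BL/6, floxed without Cre, or CD11c-Cre-GFP animals.

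As background, Gas6 and protein S, the product of *Pros1*, bind phosphatidylserine with one end and TAM receptors with the other, and the receptor kinases both promote uptake and dampen inflammatory signalling. Mfge8 instead ties phosphatidylserine to αv integrins, among them the one that the *Itgb5* product forms with αv. Axl is the TAM receptor known in LCs, where TGFβ1 induces it.

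Between 26325627 and 76077813 read pairs were counted per library. *Rara* measured 104 and 127 CPM in WT 1 and WT 2 against 62.1 and 93.2 CPM after deletion, and 114 and 124 CPM in the Control pair against 47.3 and 49.1 CPM with RA, where CPM scales counts to the TMM-adjusted library size. The ∆*Rara* CD11c difference missed the threshold (log2 fold change -0.57, SE 0.18, adjusted p = 0.0521, edgeR quasi-likelihood), and that with RA passed it (-1.31, SE 0.19, adjusted p = 0.0013). Counts over the whole gene cannot show the loss of a single exon. Dendritic and LC markers (7 of 7 found) summed to 21827 to 32210 CPM in the WT libraries, 18421 and 23277 CPM after *Rara* deletion, and 1943 and 2629 CPM with RA. Of these genes, 3 were called lower after deletion and 7 with RA. Of all tested genes, 13.3% and 19.3% were called lower in the same comparisons, and 13.6% and 15.2% higher. *Flt3* stood higher after deletion (14.8 and 16.9 CPM against 11.9 and 11.8 CPM in WT 1 and WT 2) but was not called. Most of the sum came from *Cd74* and *H2-Aa*. *Epcam* stood at 381 and 360 CPM in WT 1 and WT 2 against 80.1 and 69.0 CPM in ∆*Rara* CD11c cells. In the Control libraries it stood at 490 and 446 CPM, against 4.83 and 7.48 CPM with RA. The macrophage list summed to 1607 to 2805 CPM in all 8, with *Cd163* and *Vsig4* below 0.6 CPM throughout. The neutrophil list (6 of 7 found) summed to 2547 and 564 CPM in WT 1 and WT 2, 2696 and 728 CPM in ∆*Rara* CD11c cells, 834 and 1173 CPM in the Control libraries and 170 and 211 CPM with RA, where 2 of its genes were called lower. The list for mast cells, basophils and eosinophils (7 of 7 found) summed to 52.7 and 77.0 CPM in WT 1 and WT 2. In ∆*Rara* CD11c cells it summed to 213 and 141 CPM, with 2 genes called higher. It summed to 20.0 and 32.6 CPM in the Control libraries against 46.0 and 78.9 CPM with RA, with 1 called higher and 1 lower. Most of the sum with RA came from *Siglecf*, the gene called higher (44.9 and 76.9 CPM against 18.2 and 24.4 CPM). The other tested genes of the list, *Cpa3*, *Mcpt8*, *Epx* and *Prg2*, were fitted lower with RA. Of these only *Mcpt8* was called, and the libraries overlapped for *Epx* and *Prg2*. *Pf4*, a platelet gene, was called higher in ∆*Rara* CD11c cells (71.8 and 83.3 CPM against 32.0 and 28.1 CPM) and lower with RA (6.84 and 7.07 CPM against 39.6 and 31.3 CPM). Lymphocyte and stromal lists summed to at most 6.68 and 10.3 CPM. The part of these cells in any result was not tested. *Cd207*, the gene of langerin, stood at 0.541 and 0.259 CPM in ∆*Rara* CD11c cells and 0.0401 and 0.0377 CPM with RA, against 18.5 to 97.7 CPM in the WT libraries, so this defining LC marker was nearly absent from both. *Xist* was at 91.1 and 253 CPM in WT 1 and WT 2 and at most 1.08 CPM in the other 6 libraries, so the sex of the animals moves with the ∆*Rara* CD11c comparison and with that between the sets of WT libraries, and its part in any result was not tested. Reads in 3′ UTRs made up 48.8% and 46.8% of high quality reads in ∆*Rara* CD11c cells and 31.0% to 39.2% in the other libraries, which was not tested either. Less RNA per cell and fewer cells of a type cannot be told apart in these bulk libraries.

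To show the sequence at the start of the gene with the largest differences and of the members called higher with RA, the 250 bases before the RefSeq start (GRCm38.p6, the mm10 sequence) are printed for *Mfge8* and for *Axl*, *Mertk*, *Stab1* and *Itgb5*. Capitals mark each match to 4 forms of the retinoid receptor half-site, which are AGGTCA or GGGTCA and also AGTTCA or GGTTCA, on either strand. Promoter windows were found for all 10 members.
Mfge8, chr7:79149061-79149310, minus strand: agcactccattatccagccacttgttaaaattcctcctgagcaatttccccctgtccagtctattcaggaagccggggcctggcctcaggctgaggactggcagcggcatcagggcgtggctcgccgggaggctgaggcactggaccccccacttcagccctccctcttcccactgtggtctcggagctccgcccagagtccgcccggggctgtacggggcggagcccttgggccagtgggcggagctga
Axl, chr7:25788734-25788983, minus strand: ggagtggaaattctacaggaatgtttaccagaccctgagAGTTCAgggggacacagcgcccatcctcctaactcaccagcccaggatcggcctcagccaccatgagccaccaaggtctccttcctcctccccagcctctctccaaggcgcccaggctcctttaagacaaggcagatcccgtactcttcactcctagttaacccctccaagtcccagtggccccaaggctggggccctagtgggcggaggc
Mertk, chr2:128698665-128698914, plus strand: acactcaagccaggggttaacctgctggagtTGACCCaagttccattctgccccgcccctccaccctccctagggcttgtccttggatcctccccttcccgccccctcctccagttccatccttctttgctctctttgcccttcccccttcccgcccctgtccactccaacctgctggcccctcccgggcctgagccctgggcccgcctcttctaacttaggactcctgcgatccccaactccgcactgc
Stab1, chr14:31168642-31168891, minus strand: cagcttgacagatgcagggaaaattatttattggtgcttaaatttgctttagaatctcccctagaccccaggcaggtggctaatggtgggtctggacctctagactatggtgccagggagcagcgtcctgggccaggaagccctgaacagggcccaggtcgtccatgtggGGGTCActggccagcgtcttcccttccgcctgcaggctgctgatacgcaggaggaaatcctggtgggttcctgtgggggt
Itgb5, chr16:33829415-33829664, plus strand: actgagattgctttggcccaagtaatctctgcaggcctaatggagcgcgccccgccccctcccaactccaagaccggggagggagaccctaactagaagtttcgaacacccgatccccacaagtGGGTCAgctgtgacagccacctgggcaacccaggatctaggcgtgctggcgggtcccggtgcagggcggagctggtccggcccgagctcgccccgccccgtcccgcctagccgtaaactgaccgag

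Of the 10 members, 4 held a half-site in this window, AGTTCA for *Axl* and GGGTCA for *Mertk* (on the opposite strand), *Stab1* and *Itgb5*. The match begins 211 bases before the start in *Axl*, 219 in *Mertk*, 80 in *Stab1* and 126 in *Itgb5*. The windows of the other 6 members, *Mfge8* included, held none of these letters. Among 32851 windows of the same length, 38.6% hold at least 1 half-site, so a count of 4 in 10 is close to the share of all windows. That these 4 are also the members called higher with RA was noticed after the values were seen and was given no test. The match was not kept under every alternative. Leaving out 1 library could remove *Mertk* or *Stab1* from the members called higher. DESeq2 and the replicate block also called *Lrp1* higher with RA, and removing exon length trends added *Lrp1* and *Pros1*, neither of which holds a half-site. Direct repeats of the half-site spaced by 1, 2 or 5 bases, which 0.164%, 0.174% and 0.0883% of all windows hold, were in no member's window. A match is a run of letters and not a shown binding site.

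In the 4 untreated WT libraries the genes spanned a wide range of levels, compared here as RPKM, the TMM-scaled CPM per kilobase of exon. *Mfge8* ranked at 13 among the 12424 tested genes, with 2088 to 4759 RPKM, and its reads were 0.476% to 0.998% of all counted pairs. *Axl* followed with 114 to 188 RPKM, *Itgb5* with 34.6 to 43.1 RPKM, *Lrp1* with 22.3 to 30.0 RPKM and *Elmo1* with 15.7 to 22.3 RPKM. Each of these was above the next in 4 of 4 libraries, and the ranges did not overlap, although the lowest *Lrp1* value and the highest *Elmo1* value, both in Control 2, round to the same number. *Pros1* (7.91 to 9.17 RPKM) and *Mertk* (3.76 to 9.19 RPKM) overlapped, as did *Mertk* and *Stab1* (1.59 to 4.42 RPKM), and *Gas6* (0.274 to 1.47 RPKM) and *Tyro3* (0.292 to 0.669 RPKM) could not be ordered. The bridge to integrins was thus far more abundant as RNA than the bridges to TAM receptors.

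**Figure D1:**
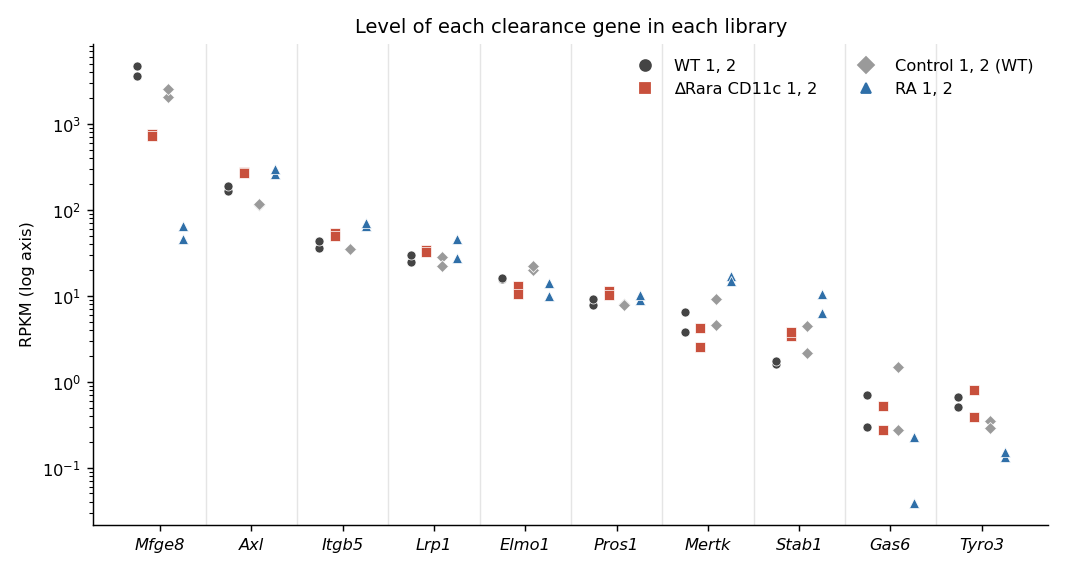
RPKM of the 10 clearance genes in each of the 8 libraries, on a log axis and ordered by their mean in the 4 WT libraries; each marker is 1 library. *Mfge8* lies far above the rest in untreated cells and falls to 46.1 and 65.7 RPKM with RA, where *Axl* stands above it at 263 and 300 RPKM.

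*Mfge8*, which encodes the bridge between phosphatidylserine and αv integrins, lies on chromosome 7 from 79133768 to 79149060 in mm10 and had the largest differences of the 10 genes. Its level was 7799 and 10117 CPM in WT 1 and WT 2 and 1645 and 1538 CPM in ∆*Rara* CD11c 1 and 2. The ∆*Rara* CD11c libraries lay close together and below both WT libraries, a fitted 5.63-fold difference (log2 fold change -2.49, SE 0.20). In Control 1 and Control 2 the level was 4440 and 5376 CPM, and in RA 1 and RA 2 it was 97.9 and 140 CPM. With RA the transcript thus stood 41.3-fold lower (log2 fold change -5.37, SE 0.23), below the ∆*Rara* CD11c libraries as well. Even so, 4886 and 7412 read pairs were counted in the RA libraries, so the remaining level is well measured.

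*Gas6*, the TAM ligand with the broadest receptor range, was scarce. It was at 0.777 and 1.80 CPM in WT 1 and WT 2, 0.707 and 1.36 CPM in ∆*Rara* CD11c cells, 0.711 and 3.80 CPM in the Control libraries, and 0.10 and 0.584 CPM with RA. The libraries of the first comparison overlapped, while RA 2 lay just below Control 1, and RA 1 was the lowest of all 8. Only 5 read pairs were counted in RA 1, and the fitted difference with RA (log2 fold change -2.70, SE 0.96) ranged from -4.46 to -1.04 when 1 library was left out, -1.04 being the value without Control 2. *Pros1*, which encodes protein S, hardly varied, with 25.9 and 30.0 CPM in WT 1 and WT 2, 37.0 and 33.6 CPM in ∆*Rara* CD11c cells, 26.5 and 25.9 CPM in the Control libraries and 29.4 and 33.6 CPM with RA. Its libraries did not overlap in either comparison, but the differences were small (log2 fold change 0.33, SE 0.12, and 0.27, SE 0.12).

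Within the bridges, the balance moved with *Mfge8*. *Mfge8* held 98.5% to 99.8% of the summed RPKM of the 3 bridges in the untreated WT and ∆*Rara* CD11c libraries, and 83.6% and 86.2% in RA 1 and RA 2. Expressed against *Pros1* rather than *Mfge8*, *Gas6* remained the rarer of the TAM ligands in all 8 libraries, with ratios of *Pros1* to *Gas6* from 5.39 in Control 2 to 232 in RA 1.

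Among the TAM receptors, *Axl* (chromosome 7, 25756500 to 25788733) stood higher in both sets. It was at 843 and 956 CPM in WT 1 and WT 2 and at 1393 and 1380 CPM in ∆*Rara* CD11c cells, a 1.54-fold difference (log2 fold change 0.62, SE 0.11). The corresponding values were 579 and 602 CPM in the Control libraries and 1336 and 1526 CPM with RA, a 2.42-fold difference (log2 fold change 1.28, SE 0.11). In neither comparison did the libraries overlap. The ∆*Rara* CD11c and RA libraries reached like levels, and the 2 sets of WT libraries did not start from like levels.

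**Figure D2:**
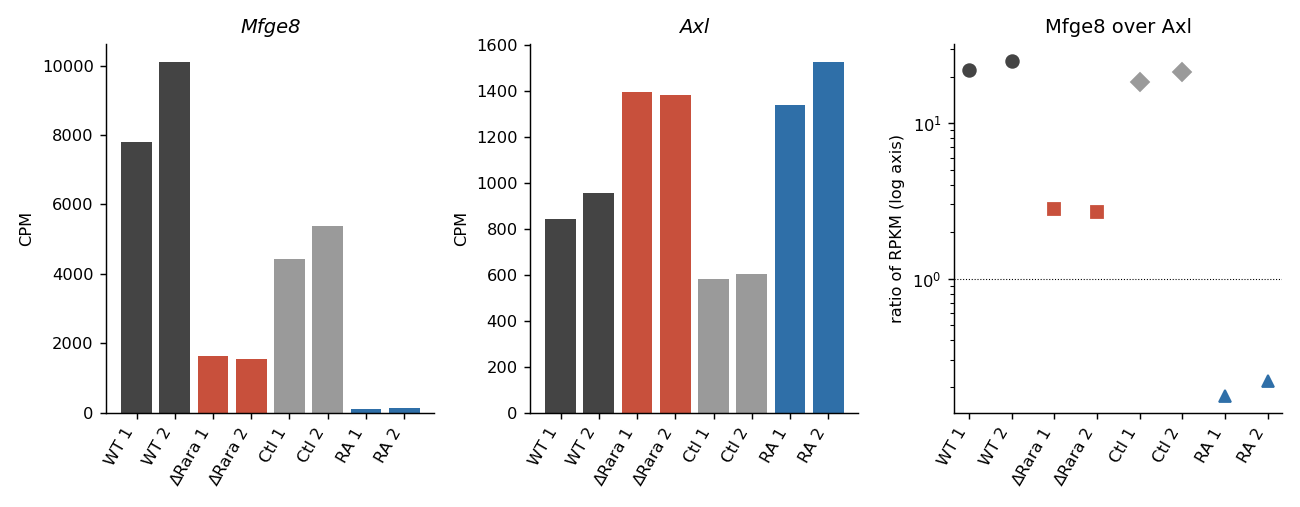
CPM of *Mfge8* (left) and *Axl* (middle) in each library as bars, and the ratio of their RPKM on a log axis (right), with a dotted line where the genes are equal (Ctl, Control; ∆Rara, ∆*Rara* CD11c). The ratio is 18.3 to 25.3 in the 4 WT libraries, 2.82 and 2.67 after *Rara* deletion, and 0.175 and 0.219 with RA.

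*Mertk*, a receptor kinase better known in macrophages, stood higher with RA and showed no clear difference in ∆*Rara* CD11c cells. It was at 13.4 and 22.8 CPM in WT 1 and WT 2 and at 9.02 and 15.1 CPM in ∆*Rara* CD11c cells, which overlapped (log2 fold change -0.58, SE 0.38). Control 1 and 2 held 16.5 and 32.7 CPM, and 60.2 and 53.4 CPM were found with RA, without overlap (log2 fold change 1.21, SE 0.37). The Control libraries lay far apart, and the RA value was 0.80 without Control 1 and 1.79 without Control 2. Among the macrophage markers, *Fcgr1* and *C5ar1* were called higher and *Adgre1* and *Csf1r* lower in both comparisons, and their part in the *Mertk* values was not tested.

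*Tyro3* was near the limit of detection, at 2.42 and 3.23 CPM in WT 1 and WT 2, 3.83 and 1.85 CPM in ∆*Rara* CD11c cells, 1.68 and 1.41 CPM in the Control libraries and 0.642 and 0.735 CPM with RA. Its ∆*Rara* CD11c libraries fell on both sides of the WT libraries (log2 fold change -0.01, SE 0.37), and its RA libraries lay below both Control libraries (-1.16, SE 0.40). *Axl* made up 92.6% to 98.8% of the summed RPKM of the 3 TAM receptors in every library. The share of *Mertk* was 2.21% and 3.29% in WT 1 and WT 2, 0.915% and 1.54% in ∆*Rara* CD11c cells, 3.89% and 7.18% in the Control libraries and 6.05% and 4.76% with RA, so the rise of *Mertk* with RA did not change which receptor dominated.

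*Stab1*, the gene of stabilin-1, a scavenger receptor that binds phosphatidylserine itself, was at 12.7 and 14.0 CPM in WT 1 and WT 2 and 27.4 and 30.6 CPM in ∆*Rara* CD11c cells (log2 fold change 1.12, SE 0.34). In Control 1 and 2 it measured 17.1 and 35.4 CPM, and with RA 49.98 and 83.8 CPM (1.35, SE 0.34). The groups did not overlap in either comparison, but Control 2 exceeded both ∆*Rara* CD11c libraries. Against the 4 WT libraries pooled the ∆*Rara* CD11c difference was 0.55 and was not called, nor was it called with library totals. When 1 library was left out, the ∆*Rara* CD11c difference ranged from 0.99 to 1.19 and that with RA from 0.92 to 1.97. Whether *Stab1* was called depended on the library left out in both comparisons.

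*Itgb5*, the β subunit that pairs with αv to bind Mfge8, was at 120 and 142 CPM in WT 1 and WT 2 and 175 and 164 CPM in ∆*Rara* CD11c cells (log2 fold change 0.37, SE 0.11). It was at 114 CPM in both Control libraries and at 212 and 233 CPM with RA (0.97, SE 0.11). No library overlapped in either comparison, so in these 2 comparisons the integrin subunit stood higher where the transcript of its ligand stood lower. Between the untreated sets both were lower in Control 1 and 2 than in WT 1 and 2 (*Itgb5* -0.20, SE 0.11, *Mfge8* -0.87, SE 0.20). The ∆*Rara* CD11c difference of *Itgb5* ranged from 0.21 to 0.50 when 1 library was left out. It was not called with library totals or when only the libraries compared were fitted, and whether it was called also depended on the library left out.

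*Lrp1*, an endocytic receptor that recognises calreticulin on dying cells, was at 369 and 447 CPM in WT 1 and WT 2 and 505 and 486 CPM in ∆*Rara* CD11c cells (log2 fold change 0.28, SE 0.23). With RA it was at 686 CPM in RA 1 but 407 CPM in RA 2, inside the 421 and 332 CPM of the Control libraries, so that its difference (0.54, SE 0.23) rested on 1 library and was 0.11 without RA 1. *Elmo1*, which works with Dock proteins to activate Rac1 at the phagocytic cup, was the only abundant member besides *Mfge8* to stand lower in both. It was at 92.1 and 95.4 CPM in WT 1 and WT 2, 76.7 and 62.1 CPM in ∆*Rara* CD11c cells, 117 and 131 CPM in the Control libraries and 59.1 and 82.4 CPM with RA. Neither comparison overlapped (log2 fold change -0.43, SE 0.17, and -0.81, SE 0.17), although the ∆*Rara* CD11c value was -0.13 once trends on GC content and on the lengths of coding sequence and 3′ UTR were removed.

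**Figure D3:**
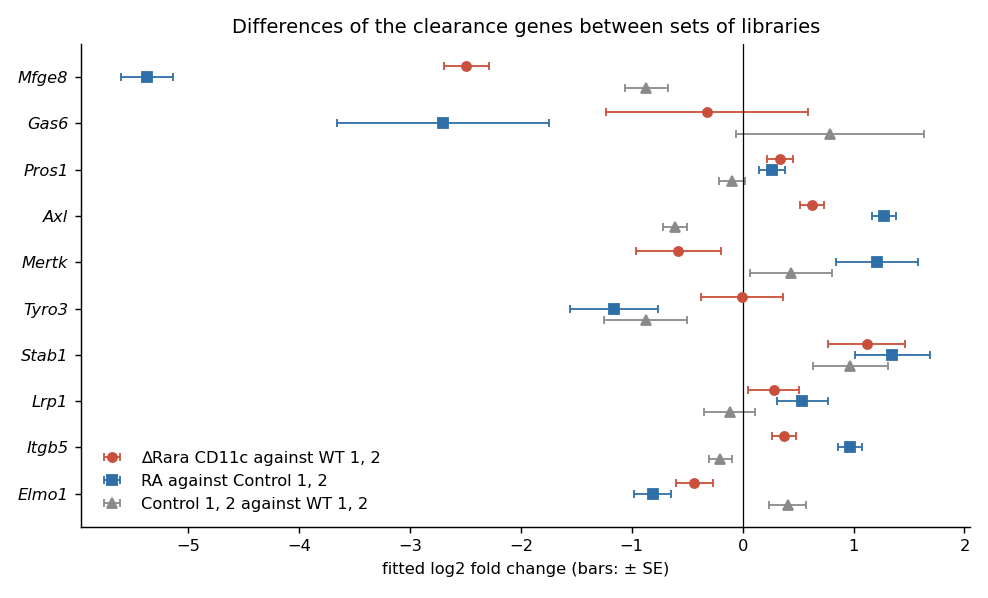
Fitted log2 fold change with its SE for the 10 clearance genes in ∆*Rara* CD11c cells against WT 1 and 2 (red), with RA against Control 1 and 2 (blue), and in Control 1 and 2 against WT 1 and 2 (grey). *Mfge8* is at -2.49 and -5.37, *Axl* at 0.62 and 1.28, and the SE of *Gas6*, the gene with the fewest reads, is the widest.

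By the threshold on all genes (adjusted p under 0.05), 3 members were called higher in ∆*Rara* CD11c cells (*Axl*, *Stab1*, *Itgb5*) and 1 lower (*Mfge8*), where 26.9% of all tested genes were called, 13.6% higher and 13.3% lower. With RA, 4 were called higher (*Axl*, *Mertk*, *Stab1*, *Itgb5*) and 2 lower (*Mfge8*, *Elmo1*), where 34.5% of all tested genes were called, 15.2% higher and 19.3% lower. Since the members were chosen with these differences known, nothing is read from the counts. Libraries did not overlap for 7 members in the first comparison and 9 in the second, against 65.6% and 75.0% of all tested genes. The median log2 fold change was 0.14 and 0.40 over the members and 0.0028 and -0.0066 over all tested genes. The first count was 2 without WT 1, without ∆*Rara* CD11c 1 or without ∆*Rara* CD11c 2, and with library totals in place of TMM, which lowers the median ∆*Rara* CD11c difference of all genes by 0.15 on the log2 scale, it was 1 higher and 2 lower.

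The untreated WT libraries of the 2 sets can also be set against each other. They are the reference libraries of both comparisons by which the genes were chosen, so their values are a description as well and carry no test. *Mfge8* was lower in Control 1 and 2 than in WT 1 and 2 (log2 fold change -0.87, SE 0.20), and so was *Axl* (-0.61, SE 0.11), so the pair that differed in opposite directions with RA and in ∆*Rara* CD11c cells differed in the same direction here. By the threshold on all genes these were the members called, both lower, where 21.6% of all tested genes were called and 9.94% were lower. Both calls were lost without WT 2, without Control 1 and without Control 2. The *Mfge8* difference was well below that with RA, and for *Axl* it was about as large as that in ∆*Rara* CD11c cells. *Xist* separates these libraries too, as given above.

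Outside the 10 members, 58 genes of the clearance pathway were listed by role, and 53 of them passed the filter. Earlier results of these data were known when the list was made. In ∆*Rara* CD11c cells 10 were higher and 6 lower, and with RA 12 were higher and 13 lower, with a median log2 fold change of 0.0097 and -0.13, beside medians of 0.0028 and -0.0066 over all tested genes. Of all tested genes, 26.9% and 34.5% were called in the same comparisons. With library totals in place of TMM the ∆*Rara* CD11c split was 6 higher and 13 lower. The 16 calls in ∆*Rara* CD11c cells fell to 8 without WT 1, 4 without WT 2, 9 without ∆*Rara* CD11c 1 and 10 without either Control library.

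Of the receptors, 13 of 17 were tested. *Havcr2*, which encodes the phosphatidylserine receptor TIM-3, fell in both comparisons. It was at 94.2 and 130 CPM in WT 1 and WT 2 and 34.7 and 52.7 CPM in ∆*Rara* CD11c cells (log2 fold change -1.36, SE 0.24, adjusted p = 0.0068), and at 105 and 130 CPM in the Control libraries and 13.0 and 16.7 CPM with RA (-2.99, SE 0.25, adjusted p = 0.000104). *Cd300a* and *Cd300lb*, receptors of the CD300 family that bind lipids of dying cells, rose in both. *Cd300a* was at 39.8 and 50.7 CPM in WT 1 and WT 2, 84.2 and 110 CPM in ∆*Rara* CD11c cells, 19.6 and 23.6 CPM in the Control libraries and 52.9 and 55.4 CPM with RA, with a log2 fold change of 1.10 (SE 0.17, adjusted p = 0.0045) and 1.33 (SE 0.17, adjusted p = 0.000781). For *Cd300lb* the levels were 26.0 and 29.9, 52.4 and 59.8, 8.28 and 13.5, and 29.6 and 28.1 CPM in the same order. Its RA libraries thus lay within the range of WT 1 and WT 2. Both genes were lower in Control 1 and 2 than in WT 1 and 2 (*Cd300a* -1.07, SE 0.17, *Cd300lb* -1.36, SE 0.21). *Cd300lb* rose by a log2 fold change of 1.00 (SE 0.20, adjusted p = 0.0114) and 1.40 (SE 0.21, adjusted p = 0.0017), the first lost without WT 1 (adjusted p = 0.0611) or WT 2 (0.0529). With RA alone past the threshold, *Scarf1*, a scavenger receptor for C1q-coated cells, fell (-1.48, adjusted p = 0.0017) and *Scarb1* rose (0.59, adjusted p = 0.0059, and 0.0559 without Control 2). *Cd36* did not pass in either comparison (adjusted p = 0.796 and 0.12), and *Timd4*, the gene of TIM-4, was not tested, with 0 to 0.152 CPM in all 8 libraries. Beyond these, *Msr1* was called higher and *Havcr1* lower in ∆*Rara* CD11c cells, and *Cd300lf* and *Olr1* higher and *Havcr1* lower with RA, which are named only to complete the counts. Each of these calls was lost when some single libraries were left out.

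The αv partner of *Itgb5* went the other way with RA. *Itgav* was at 71.6 and 70.9 CPM in the Control libraries and 38.3 and 43.0 CPM with RA (log2 fold change -0.81, SE 0.14, adjusted p = 0.0036), while *Itgb5* stood higher there. In ∆*Rara* CD11c cells it was at 70.5 and 56.2 CPM against 68.1 and 55.4 CPM in WT 1 and WT 2 (0.04, SE 0.14, adjusted p = 0.864). *Itgb3*, the alternative β subunit, fell with RA from 1.78 and 2.38 CPM to 0.381 and 0.565 CPM (-2.13, SE 0.47, adjusted p = 0.0104), a call lost without Control 2 (0.0686) or RA 1 (0.0755), and did not pass in ∆*Rara* CD11c cells (-0.21, SE 0.45, adjusted p = 0.751). Per kilobase of exon, *Itgb5* was at 34.6 RPKM or more in every library and *Itgb3* at most at 0.411 RPKM.

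Of the bridges and opsonins, all 9 were tested. *Ptx3*, the gene of the soluble opsonin pentraxin 3, rose in both (1.97, SE 0.48, adjusted p = 0.0211, and 1.85, SE 0.47, adjusted p = 0.0185) from low levels of 1.32 to 1.51 CPM in WT 1 and WT 2 and 1.17 and 1.96 CPM in the Control libraries. Its first call was lost without WT 1, WT 2 or ∆*Rara* CD11c 2 (adjusted p = 0.0676, 0.125 and 0.0811), and the second without Control 1 or RA 2 (0.110 and 0.119). With RA, *Thbs1*, *Edil3* and *Anxa1* were called lower, and are likewise named to complete the count. The *Thbs1* call was lost when some single libraries were left out. *Cd47*, the signal by which a cell resists uptake, rose from 191 and 183 CPM to 315 and 344 CPM in ∆*Rara* CD11c cells (0.82, SE 0.12, adjusted p = 0.0042) and from 137 and 147 CPM to 246 and 196 CPM with RA (0.64, SE 0.12, adjusted p = 0.0054). The partner of *Cd47*, *Sirpa*, was called higher with RA only (0.36, SE 0.094), a call lost when some single libraries were left out. Of the find-me signals, *Panx1* rose in ∆*Rara* CD11c cells (0.47, SE 0.14, adjusted p = 0.0394), a call lost without WT 1, WT 2, ∆*Rara* CD11c 1 or either Control library (adjusted p = 0.0694 to 0.254), and *P2ry2*, a nucleotide receptor, rose with RA (1.25, SE 0.21, adjusted p = 0.0026).

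Beside *Elmo1*, the engulfment machinery gave a divided picture. *Dock1*, the classical Elmo1 partner, was at 20.9 and 21.3 CPM in WT 1 and WT 2, 28.2 and 26.5 CPM in ∆*Rara* CD11c cells, 34.0 and 30.4 CPM in the Control libraries and 49.0 and 50.4 CPM with RA. It rose in both (0.37, SE 0.10, adjusted p = 0.0289, and 0.63, SE 0.098, adjusted p = 0.0021), so in these 2 comparisons *Dock1* was higher where *Elmo1* was lower. Between the untreated sets both genes were higher in Control 1 and 2 (*Dock1* 0.61, SE 0.099, *Elmo1* 0.41, SE 0.17). The first *Dock1* call was lost without any 1 of the 4 libraries compared (log2 fold change 0.27 to 0.39). *Dock2*, its haematopoietic relative, was at 139 and 92.4 CPM in WT 1 and WT 2 and 17.3 and 63.0 CPM in ∆*Rara* CD11c cells (-1.52, SE 0.48, adjusted p = 0.0497), where the ∆*Rara* CD11c libraries lay far apart. The log2 fold change was -0.93 without ∆*Rara* CD11c 1 and -2.78 without ∆*Rara* CD11c 2, and the call was lost without WT 1 (0.152), WT 2 (0.0953), or any Control or RA library (0.0697 to 0.0776). *Dock2* did not pass with RA (-0.23, SE 0.47, adjusted p = 0.736). *Elmo2* was lower in ∆*Rara* CD11c cells (-0.29, SE 0.087, adjusted p = 0.0400), with the call lost without WT 2, ∆*Rara* CD11c 1 or any Control or RA library (0.0534 to 0.204), and *Trio*, an exchange factor upstream of Rac1, fell with RA (-0.68, SE 0.12, adjusted p = 0.0035). *Rac1* itself (0.12 and -0.20, adjusted p = 0.354 and 0.138) and *Lrpap1*, the chaperone of Lrp1 (-0.18 and -0.38, adjusted p = 0.488 and 0.129), did not pass. *Rhog* was called lower with RA (-0.39, SE 0.087), a call lost when some single libraries were left out.

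Downstream of uptake, *Lipa*, the lysosomal acid lipase, rose by a log2 fold change of 0.53 (SE 0.13, adjusted p = 0.0189) in ∆*Rara* CD11c cells and of 0.54 (SE 0.13, adjusted p = 0.0124) with RA. The first was lost without any 1 of the 4 libraries compared (0.0563 to 0.112) and the second without Control 1 or RA 1 (0.0724 and 0.0508). *Rubcn*, listed under the older symbol *1700021K19Rik* and known for LC3-associated phagocytosis, fell in both (-0.73, SE 0.16, adjusted p = 0.0137, and -0.65, SE 0.15, adjusted p = 0.0135), with the first lost without WT 2 or ∆*Rara* CD11c 1 (0.0830 and 0.0567) and the second without Control 2 or RA 1 (0.0933 and 0.0734). *Pik3c3*, the lipid kinase that Rubicon acts with, was lower in ∆*Rara* CD11c cells (-0.31, SE 0.087, adjusted p = 0.0338), a call lost without any of the 4 libraries compared or either Control library (0.0577 to 0.117). *Abca1*, the cholesterol exporter that responds to taken-up lipid, was called in ∆*Rara* CD11c cells (0.54, SE 0.17, adjusted p = 0.0465). Its difference reversed to -0.38 against the 4 WT libraries pooled, and the call was lost without any 1 library but ∆*Rara* CD11c 1 (0.0649 to 0.282). *Nr1h3*, the gene of LXRα, which induces *Abca1*, passed in neither comparison (adjusted p = 0.988 and 0.118).

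*Adam10* and *Adam17* encode the proteases known to shed Axl and Mertk from the cell surface. *Adam10* rose from 161 and 160 CPM to 266 and 244 CPM in ∆*Rara* CD11c cells (0.67, SE 0.11, adjusted p = 0.0064) and from 146 and 172 CPM to 280 and 319 CPM with RA (0.91, SE 0.11, adjusted p = 0.000704). *Adam17* passed in neither (-0.04 and -0.05, adjusted p = 0.784 and 0.698). *Socs1* and *Socs3*, which TAM receptors are known to induce as brakes on cytokine signalling, fell with RA although *Axl* and *Mertk* were higher there. *Socs1* went from 33.1 and 42.4 CPM to 8.32 and 13.0 CPM (-1.82, SE 0.25, adjusted p = 0.0010), and *Socs3* from 186 and 243 CPM to 50.1 and 102 CPM (-1.497, SE 0.33, adjusted p = 0.0093, and 0.0616 without Control 2). In ∆*Rara* CD11c cells neither passed (-0.20, adjusted p = 0.559, and -0.89, adjusted p = 0.0746). The calls of *Havcr2* and *Adam10* held in both comparisons under all 18 alternatives run, and those of *Cd300a* and *Cd47* did so in ∆*Rara* CD11c cells, while their RA calls were lost when the 4 WT libraries were pooled (adjusted p = 0.166 and 0.0888). Pooling also ended the RA calls of *Cd300lb*, *Scarb1*, *Trio* and *Rubcn* and the ∆*Rara* CD11c call of *Dock1*, and removing length trends ended the RA call of *Trio* and the ∆*Rara* CD11c calls of *Dock2*, *Elmo2*, *Pik3c3* and, for exon length alone, *Panx1*. The ∆*Rara* CD11c calls of *Abca1*, *Dock1*, *Dock2*, *Elmo2*, *Panx1* and *Pik3c3* were lost when only the libraries compared were fitted, those of *Elmo2*, *Panx1* and *Pik3c3* with no filter, and those of *Abca1*, *Dock1* and *Panx1* with library totals.

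**Figure D4:**
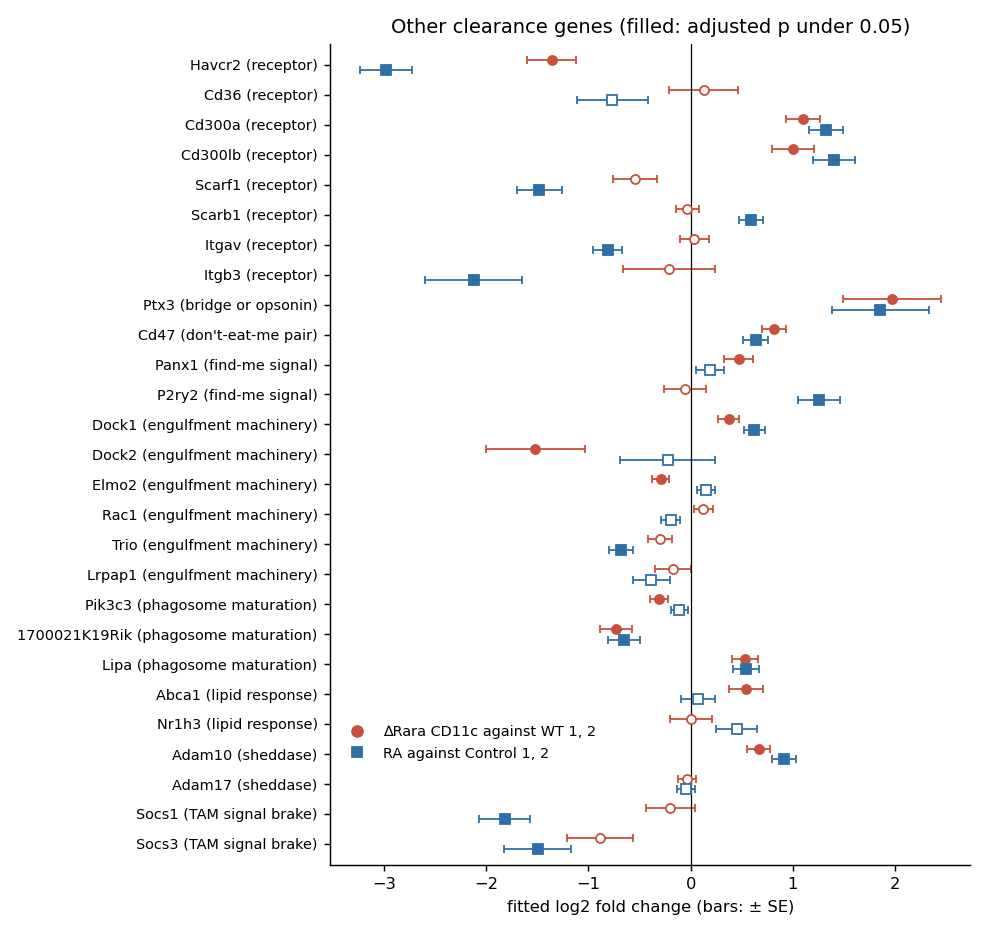
Fitted log2 fold change with its SE for the named clearance genes outside the 10 members, by role, in ∆*Rara* CD11c cells (red circles) and with RA (blue squares); filled markers have an adjusted p under 0.05. *Havcr2* lies at -1.36 and -2.99, *Adam10* at 0.67 and 0.91, and *Itgav* at 0.04 and -0.81.

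The genes whose log2 CPM followed *Mfge8* most closely over the 8 libraries, among 9963 genes with a mean of at least 5 CPM, were *Gadd45b*, *Procr*, *Dfna5*, *Mapk13* and *Cnp* (Pearson correlation 0.997 to 0.994). *Procr*, the gene of the protein C receptor, had means of 239 CPM in WT 1 and 2, 102 CPM in ∆*Rara* CD11c cells, 186 CPM in the Control libraries and 39.8 CPM with RA, a narrower span than that of *Mfge8*. For *Axl* the closest were *Fam78a*, *Gsto1*, *Cotl1*, *Ccr2* and *Acp5* (0.998 to 0.985). *Ccr2*, a chemokine receptor of monocytes, had means of 226, 635, 93.97 and 545 CPM in the same order, and *Acp5*, the gene of a phosphatase of osteoclasts and macrophages, 65.0, 301, 24.2 and 305 CPM. With library totals, 2 of the 5 genes for *Mfge8* and 3 of the 5 for *Axl* stayed among the closest.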

How the data were processed

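CD11c+ cells of 8 libraries (4 WT, 2 ∆*Rara* CD11c, 2 RA) were profiled by stranded poly(A) RNA-seq with paired 100-base reads. The authors aligned reads to mm10 with STAR and counted uniquely mapped pairs per refGene gene with featureCounts (mapping quality of at least 10, reverse strand), and the deposited counts are raw. For tool versions, none is given in the labels or methods. The deposited mapping summary was used for the percent of reads per region, as the authors gave it. Deposited fold changes, p-values and FDR of the authors' own comparisons, and their RPKM, were not used; 0 columns of other samples were present. Columns were assigned to groups by name.

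Counts were fitted in R 4.3.3 with edgeR 4.0.16 (TMM, glmQLFit, glmQLFTest) in 1 fit of 8 libraries with 4 levels, over the 12424 genes that reached 0.5 CPM in 2 or more libraries, with Benjamini-Hochberg adjustment over all of them and a threshold of 0.05. SE is the size of the log2 fold change over the root of the F statistic. RPKM is CPM on TMM library sizes per kilobase of exon. The fit was also run on simulated counts with known changes. Those counts held no difference of sex, library set or 3′ UTR share, so nothing about these libraries is read from that run. Python 3.11.15 and pandas 2.3.3 were used for summaries, and matplotlib 3.10.9 for plots. Promoter windows come from RefSeq (GRCm38.p6). Between 26325627 and 76077813 pairs were counted per library, and for genes near 0.5 CPM counting error adds to the spread.

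The members and lists were chosen with earlier results of these data known. Named genes are all members, up to 12 called other clearance genes per comparison (smallest p, at least 5 CPM in the higher group, no overlap of libraries), fixed direct partners of members, *Rara*, and for *Mfge8* and *Axl* the 5 genes of most similar pattern; a few others complete the counts and were chosen after their values were seen. The listed genes *1700021K19Rik* and *Rubcn* are 1 gene. Alternatives were DESeq2 1.42.0, RLE factors, library totals, no filter or 0.5 CPM in 6 libraries, pooled WT, only the libraries compared, a replicate block, each of 8 libraries left out, exon length trends removed and a threshold of 0.1; trends on GC content and on coding and 3′ UTR length (from GENCODE, for 11526 of the tested genes) were added after seeing the data.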

Additional observations from a re-analysis of the deposited data

Results flagged for a closer look

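Over the 4 untreated WT libraries, *Pros1* stood at 25.9, 30.0, 26.5 and 25.9 CPM, and WT 2 lay apart from the other libraries by 0.837 of their whole range, just past Dixon's critical value for 4 values. Chance marks about 1 group in 20, and 10 genes were examined.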

How the results depend on the processing

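Across the alternatives, no called difference of a member changed sign. Of the other named clearance genes, only the called difference of *Abca1* in ∆*Rara* CD11c cells did, to -0.38 with the 4 WT libraries pooled, where it no longer passed the threshold (edgeR adjusted p = 0.538). Differences that were not called could change sign, as those of *Gas6* (-0.94 to 0.43) and *Tyro3* (-0.67 to 0.39) in ∆*Rara* CD11c cells did. DESeq2 called 5 members in ∆*Rara* CD11c cells, where it called 31.3% of all tested genes, and 9 with RA, where it called 37.9%. With each library left out in turn, the number of members called was 2 to 5 in ∆*Rara* CD11c cells, 5 to 7 with RA and 0 to 3 between the sets of WT libraries, and that of other clearance genes was 4 to 15 and 17 to 26. Where 1 library alone remained in a group, it was assumed to vary like the other groups. Removing trends on GC content and on coding and 3′ UTR length left 1 member called between the sets of WT libraries in place of 2 (*Axl* alone), and the cause was not tested. Library totals shifted the median of all genes by -0.15 in ∆*Rara* CD11c cells and 0.10 between the WT sets. Replicate numbers in the names were checked as a pairing, and same-numbered libraries correlated at 0.28 and 0.27 in their deviations, over 2 pairs each. The neutrophil sums of the first set also moved with the number (2547 and 564 CPM in WT 1 and 2, 2696 and 728 CPM in ∆*Rara* CD11c 1 and 2). The labels do not say whether the numbers mark pairs, and the main fit leaves them out. With the replicate block, the ∆*Rara* CD11c calls were 5 members and 23 other clearance genes, and those with RA 8 and 30, where 37.5% and 43.9% of all tested genes were called. Beyond the calls without it, the block called *Elmo1* in ∆*Rara* CD11c cells, and *Gas6* and *Lrp1* with RA. The pooled fit, and the block, give no value between the WT sets. *Gas6* (5 to 200 pairs) and *Tyro3* (32 to 242 pairs) are limited by depth.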
